A study of Mus musculus with 14 samples.

Results

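The long-chain acyl-CoA synthetase (ACSL) family was examined through 5 genes, Acsl1, Acsl3, Acsl4, Acsl5 and Acsl6, out of the 54532 genes counted in mouse skeletal muscle. The members were taken by gene name. The family was selected on the values of Acsl3 in these libraries, so the levels and differences of Acsl3 are given as a description and without a p-value. For the other members p-values are given. All 5 members were past the filter on low counts, which left 15458 genes for testing, and each had at least 90 counts in every library.

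EC-Myc OE mice were FVB/N males that carried Tet-O-Myc, a human c-Myc transgene confined to the Y chromosome, together with Cdh5-tTA, a transactivator under the endothelial Cdh5 promoter. Their CT littermates had Tet-O-Myc but not the transactivator. Doxycycline in the food held the transgene silent during breeding, and its removal at 4 to 6 weeks of age induced c-Myc. Mice received control diet (CTD, TD.08485) or western diet (WD, TD.88137), for 20 weeks by the labels. By the labels, 3 libraries came from CT-CTD, 3 from CT-WD, 4 from OE-CTD and 4 from OE-WD, and a number after a group's name is its replicate. The study's text gives another time on diet for the transcriptome, and group sizes that differ by diet, where those of the labels differ by genotype. Groups were kept as labelled, and which names the CT-WD and OE-CTD libraries should bear is in doubt. An exchange of these 2 names changes the meaning of each genotype and diet value, and was run as an alternative. With it, the log2 fold change of Acsl3 was 0.65 in OE-WD relative to CT-WD and -0.48 in OE-CTD relative to CT-CTD.

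RNA came from soleus and gastrocnemius, and the labels do not say which muscle a library represents. Polyadenylated RNA of the whole tissue was sequenced, so a transcript of muscle fibres and of any other cell type is read together. Total counts ran from 21833839 in CT-WD 2 to 28519159 in OE-CTD 2. The labels do not state that libraries are separate animals, and p-values then measure only the spread between these libraries. The sample codes hold letters and a number, and the meaning of neither is given. Each CT library has its own number. Those of CT-CTD 1 and CT-WD 1 are next to each other. They lie apart from those of replicates 2 and 3 of both CT groups, which are consecutive. In CT, replicate 1 and this split of the numbers cannot be told apart. All 4 OE-WD libraries share 1 number, as do OE-CTD 1 to 3, and OE-CTD 4 has another. The letters before the number differ between the libraries that share it. In EC-Myc OE, diet and this number cannot be told apart. OE-CTD 4 and OE-WD 4 stood apart from the other libraries, with normalization factors of 0.888 and 0.899 against 0.945 to 1.07, and with mitochondrial transcripts at 14.9% and 14.5% of counts against 9.66% to 12.8%.

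Fatty acids that enter a cell must be joined to coenzyme A before they can be oxidized, stored or built into membranes, and ACSL enzymes catalyze that step for long chains. Acsl1 is the main form of skeletal and cardiac muscle and of adipocytes, where it feeds mitochondrial β-oxidation and triglyceride storage. Acsl3 sits at the endoplasmic reticulum and on growing lipid droplets. Acsl4 prefers arachidonic acid and other polyunsaturated fatty acids. Acsl5 is found at mitochondria and the endoplasmic reticulum and is best known in intestine and liver. Acsl6 is rich in brain, where it enriches membranes in docosahexaenoic acid, and is also present in muscle.

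Acsl1 was the most abundant member in every library. Its level per length, in the authors' FPKM, was 37.8 ± 3.62 (SD, n = 14), and it exceeded each other member in 14 of 14 libraries. Acsl3 followed with 6.91 ± 1.98 FPKM, Acsl4 with 6.22 ± 0.916 and Acsl6 with 4.73 ± 0.724. Acsl5 was the least abundant with 1.61 ± 0.377 FPKM, and was below the other members in 14 of 14 libraries. The middle 3 did not keep a fixed order. Acsl3 was above Acsl4 in 7 of 14 libraries, namely in all 4 of OE-WD, 2 of CT-CTD, 1 of CT-WD and 0 of OE-CTD. Acsl4 was above Acsl6 in 13 of 14 libraries, and Acsl3 was above Acsl6 in 12 of 14.

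The summed FPKM of the 5 members was 60.7 ± 3.72 in CT-CTD (n = 3), 52.2 ± 4.54 in CT-WD (n = 3), 57.9 ± 2.32 in OE-CTD (n = 4) and 57.9 ± 1.13 in OE-WD (n = 4). The pool thus had nearly the same summed level in both EC-Myc OE groups while its composition differed. Acsl1 made up 61.3% ± 0.5465 of the sum in CT-CTD, 63.55% ± 4.06 in CT-WD, 70.9% ± 1.03 in OE-CTD and 66.4% ± 0.571 in OE-WD. Acsl3 made up 15.1% ± 1.90 in CT-CTD, 12.9% ± 4.73 in CT-WD, 8.24% ± 0.703 in OE-CTD and 12.9% ± 0.780 in OE-WD. The share of Acsl5 was between 1.44% and 3.48% in single libraries.

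**Figure D1:**
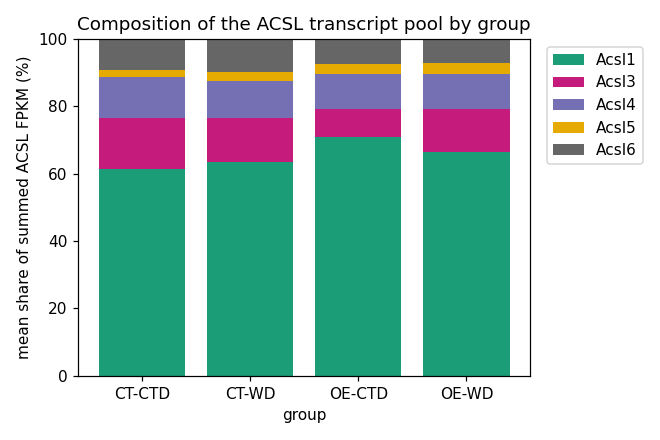
Mean share (%) of each ACSL gene in the summed FPKM of the 5 members, stacked for CT-CTD and CT-WD (n = 3 libraries each) and OE-CTD and OE-WD (n = 4 each). Acsl1 takes 61.3% to 70.9% in every group, and the Acsl3 section is narrowest in OE-CTD, at 8.24%.

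Acsl3 (ENSMUSG00000032883 on chromosome 1 of GRCm38, from 78657825 to 78707743, plus strand) varied most between the groups. Groups are compared in CPM after TMM scaling of library sizes. Acsl3 was at 39.2, 29.1 and 42.4 CPM in CT-CTD 1 to 3 and at 23.6, 35.7 and 20.3 CPM in CT-WD 1 to 3. In OE-CTD 1 to 4 it was at 19.4, 19.6, 16.6 and 20.5 CPM, and in OE-WD 1 to 4 at 31.5, 30.3, 27.8 and 29.4 CPM. OE-CTD lay below every CT-CTD and OE-WD library. OE-WD lay within the range of CT-WD and overlapped CT-CTD, with OE-WD 3 below all CT-CTD libraries. The CT groups overlapped each other. The coefficient of variation was 18.8% in CT-CTD and 30.5% in CT-WD, against 8.79% in OE-CTD and 5.18% in OE-WD. EC-Myc OE libraries that share a code number, with different letters before it, may or may not come from 1 animal, so these spreads may not measure the same thing. Over all genes, OE-CTD 1 to 3 differed from each other by a chi-square per degree of freedom of 7.81 to 10.6, and from OE-CTD 4 by 37.0 to 43.0. OE-WD 1 to 3 differed from each other by 8.52 to 15.2, and from OE-WD 4, which has the same code number, by 38.9 to 42.8.

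From the fit over all genes, Acsl3 had a log2 fold change of -0.96 ± 0.161 (SE) in OE-CTD relative to CT-CTD and of 0.17 ± 0.163 (SE) in OE-WD relative to CT-WD. By diet, the log2 fold change was -0.48 ± 0.173 (SE) in CT and 0.65 ± 0.152 (SE) in EC-Myc OE. The difference between both diet responses was 1.12 ± 0.230 (SE) on the log2 scale. Single CT-WD libraries weighed on 3 of these values. Diet in CT gave -0.75 without CT-WD 2 and -0.32 without CT-WD 3, and the difference of responses was 1.39 and 0.96. OE-WD relative to CT-WD gave 0.44 without CT-WD 2, 0.09 without CT-WD 1 and 0.01 without CT-WD 3. In whole muscle, fewer cells of a type that expresses Acsl3 and less of its RNA per cell cannot be told apart.

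**Figure D2:**
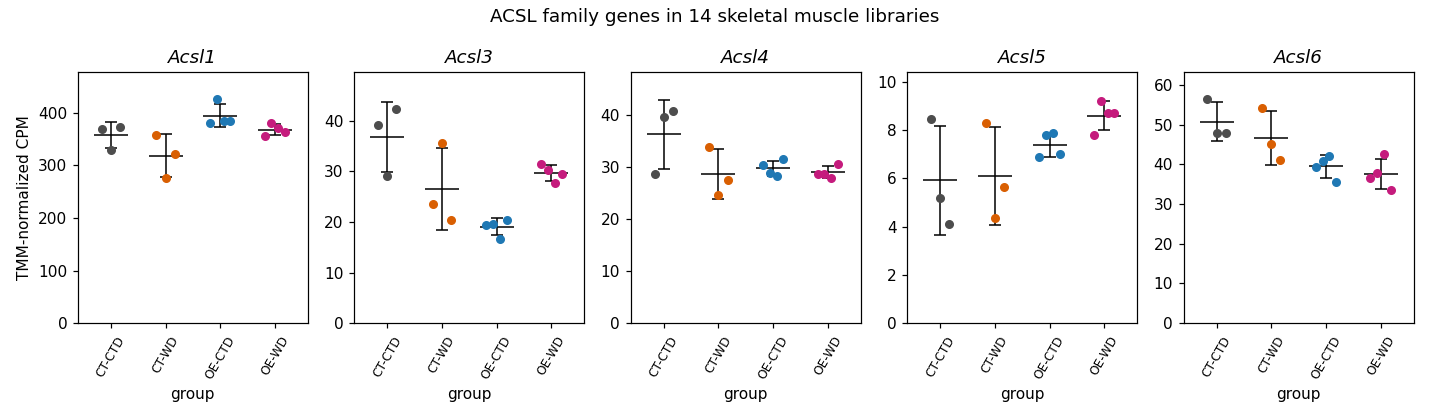
TMM-normalized CPM of each ACSL gene per library (points), with the group mean and SD (bar and whiskers), for CT-CTD and CT-WD (n = 3) and OE-CTD and OE-WD (n = 4). Each panel has its own vertical axis starting at 0. The 4 OE-CTD points of Acsl3 sit between 16.6 and 20.5 CPM, below all CT-CTD and OE-WD points.

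As labelled, OE-CTD relative to CT-CTD compares the genotypes on a normal diet. The meaning given to each comparison of 2 groups here and below holds for the labelled names alone. Mouse Myc was at 5.05 ± 0.921 CPM in CT-CTD (SD, n = 3), 8.99 ± 4.21 in CT-WD (n = 3), 5.60 ± 1.74 in OE-CTD (n = 4) and 6.40 ± 1.77 in OE-WD (n = 4). The EC-Myc OE and CT ranges overlapped on each diet. Whether reads of the human transgene enter these values was not tested. Acsl6 was lower and Acsl1 was higher in OE-CTD without overlap of the groups, while Acsl4 and Acsl5 overlapped. These 2 of the 4 members apart from Acsl3 stand beside 15.5% of all genes. By edgeR's quasi-likelihood test at an adjusted p under 0.05, 0 of these 4 members and 2.67% of all genes passed (413 genes). At an unadjusted p under 0.05, 2 of them were lower (Acsl4 and Acsl6) and 0 higher, where 6.70% of all genes were lower and 9.22% higher. Their median log2 fold change was -0.07, and that of all genes was -0.000702.

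OE-WD relative to CT-WD asks the same on western diet. Here Acsl1 and Acsl5 were higher and Acsl6 was lower in group means, and the groups overlapped for all 4 members apart from Acsl3, where 11.6% of all genes did not overlap. At an adjusted p under 0.05, 0 of these 4 passed in edgeR, and 0.725% of all genes did (112 genes). At an unadjusted p under 0.05, 2 members were higher (Acsl1 and Acsl5) and 1 lower (Acsl6), where 8.44% of all genes were higher and 8.42% lower. The medians were 0.11 for these members and 0.01 for all genes on the log2 scale. With DESeq2, 0 of them passed, although that tool called 576 genes.

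CT-WD relative to CT-CTD gives the diet response of the control genotype. The mean levels of Acsl1, Acsl4 and Acsl6 were lower in CT-WD and that of Acsl5 was slightly higher. All 4 members apart from Acsl3 overlapped between the groups, where 9.63% of all genes did not. Between CT libraries of the same replicate number, Acsl1 and Acsl6 were lower in CT-WD in 3 of 3 pairs and Acsl4 and Acsl5 in 2 of 3, where 14.9% of all genes were lower and 14.3% higher in all 3. Whether equal numbers mark true pairs is not established. At an adjusted p under 0.05, 0 of these 4 members and 0% of all genes passed in edgeR (0 genes, against 35 with DESeq2). At an unadjusted p under 0.05, 1 of them was lower (Acsl4) and 0 higher, where 3.09% of all genes were lower and 4.19% higher. The medians were -0.14 for these members and 0.01 for all genes on the log2 scale.

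OE-WD relative to OE-CTD gives the diet response under c-Myc overexpression. In CPM, Acsl1 was slightly lower in OE-WD without overlap, 1 of the 4 members apart from Acsl3, where 4.08% of all genes did not overlap. In FPKM it overlapped. At an adjusted p under 0.05, 0 of these 4 passed in edgeR, and 0.00647% of all genes did (1 gene). At an unadjusted p under 0.05, 0 of them were higher and 0 lower, where 1.93% of all genes were higher and 2.27% lower. The medians were -0.06 for these members and 0.00 for all genes on the log2 scale.

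The diet by genotype interaction tests whether the diet response differs between the genotypes. At an adjusted p under 0.05, 0 of the 4 members apart from Acsl3 and 0% of all genes passed in edgeR (0 genes, against 3 with DESeq2). At an unadjusted p under 0.05, 0 of them were higher and 0 lower, where 2.57% of all genes were higher and 3.34% lower. Their adjusted p was between 0.857 and 0.979. The comparisons share groups with each other, so their values for one gene are not independent.

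**Figure D3:**
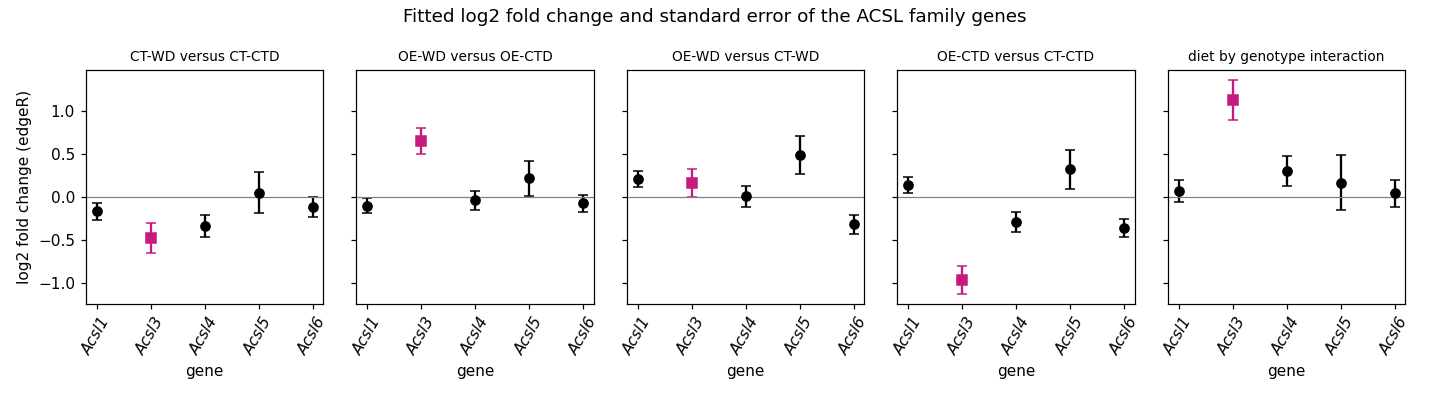
Fitted log2 fold change (points) and standard error (whiskers) of each ACSL gene in the 5 comparisons, first group relative to second, with Acsl3 as a square. Acsl3 lies at -0.96 in OE-CTD versus CT-CTD and at 0.65 in OE-WD versus OE-CTD.

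Acsl1 (ENSMUSG00000018796, chromosome 8, 46471037 to 46536051, plus strand) was at 370.2, 329.7 and 372.9 CPM in CT-CTD 1 to 3 and at 358.0, 276.2 and 322.3 CPM in CT-WD 1 to 3. OE-CTD 1 to 4 had 380.8, 427.0, 384.7 and 384.4 CPM, and OE-WD 1 to 4 had 356.5, 380.2, 370.9 and 364.1 CPM. The group means thus differed by far less than the gap between Acsl1 and the other members. OE-CTD was above CT-CTD in all libraries, with a log2 fold change of 0.14 ± 0.0908 (SE, edgeR adjusted p = 0.501). An exact permutation test, two-sided, gave p = 0.0286, the smallest that 3 against 4 libraries allow. OE-WD was below OE-CTD in all libraries, with a log2 fold change of -0.10 ± 0.0838 (SE, edgeR adjusted p = 0.9999) and an exact permutation p = 0.0286, again the smallest possible. This separation depends on the scaling, since the nearest libraries had 380.2 and 380.8 CPM, and in FPKM OE-WD 2 (39.6) was above OE-CTD 1 (39.5). OE-WD exceeded CT-WD by a log2 fold change of 0.21 (adjusted p = 0.265 in edgeR). With single libraries left out these 3 values ran, in the order given, from 0.09 (without CT-CTD 2) to 0.17, from -0.12 to -0.06 (without OE-CTD 2) and from 0.11 (without CT-WD 2) to 0.30. Over the 14 libraries Acsl1 moved with the fibroblast and tendon markers described below (Pearson 0.68, Spearman 0.65, 0.67 for deviations from the group means, 0.504 without the 2 libraries farthest from the median of the marker sum), of which 7 of 8 were higher in OE-CTD relative to CT-CTD at an unadjusted p under 0.05 (9.22% of all genes) and 0 at an adjusted p under 0.05. With the fast fibre markers its Pearson correlation was -0.58 (Spearman -0.58), with -0.546 for deviations and -0.94 without the 2 libraries farthest from the median of that sum. The part of these tissues in the level of Acsl1 was not tested.

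Acsl6 (ENSMUSG00000020333, chromosome 11, 54303798 to 54364756, plus strand) had lower means in both EC-Myc OE groups than in both CT groups as labelled. It was at 56.4, 47.9 and 47.9 CPM in CT-CTD 1 to 3 and at 54.3, 45.1 and 41.0 CPM in CT-WD 1 to 3. OE-CTD 1 to 4 had 39.4, 40.9, 42.2 and 35.6 CPM, and OE-WD 1 to 4 had 36.5, 37.7, 42.7 and 33.5 CPM. Of the EC-Myc OE libraries, OE-CTD 3 and OE-WD 3 reached above CT-WD 3, the lowest CT library. The log2 fold change was -0.36 ± 0.108 (SE) in OE-CTD relative to CT-CTD, with adjusted p = 0.0982 in edgeR and an exact permutation p = 0.0286. With DESeq2 the adjusted p was 0.0432, and without CT-WD 1 it was 0.04999 in edgeR, just past the threshold, while all alternatives that kept the group names ran from 0.0432 to 0.228. OE-WD differed from CT-WD by a log2 fold change of -0.32 ± 0.109 (SE, edgeR adjusted p = 0.163), and of -0.40 (without CT-WD 3) to -0.19 (without CT-WD 1) with single libraries left out. By diet, the log2 fold changes of Acsl6 were -0.12 in CT (-0.24 to -0.03 with single libraries left out) and -0.07 in EC-Myc OE (-0.14 to -0.02). With CT-WD and OE-CTD exchanged, Acsl6 had -0.12 (edgeR adjusted p = 0.906) in OE-CTD relative to CT-CTD and -0.07 in OE-WD relative to CT-WD. By diet it then had -0.36 in CT and -0.32 in EC-Myc OE.

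Acsl5 (ENSMUSG00000024981, chromosome 19, 55251938 to 55297720, plus strand) separated replicate 1 from the other libraries in both CT groups. It was at 8.46 CPM in CT-CTD 1 and 8.32 in CT-WD 1, whose code numbers lie apart from the other CT numbers. Whether this split of the numbers bears on Acsl5 was not tested. The other CT libraries had 5.19 and 4.09 CPM in CT-CTD 2 and 3 and 4.35 and 5.65 CPM in CT-WD 2 and 3. In EC-Myc OE it was at 6.90, 7.79, 7.88 and 6.99 CPM in OE-CTD 1 to 4 and at 7.78, 9.19, 8.72 and 8.72 CPM in OE-WD 1 to 4. The log2 fold change was 0.49 ± 0.225 (SE, edgeR adjusted p = 0.287) in OE-WD relative to CT-WD and 0.32 ± 0.225 (SE, edgeR adjusted p = 0.546) in OE-CTD relative to CT-CTD. Without replicate 1 of both CT groups these were 0.78 (adjusted p = 0.00913 in edgeR) and 0.67 (adjusted p = 0.0278), and without CT-WD 1 alone the former was 0.78 (adjusted p = 0.0452). The lowest values with a single library left out were 0.2966 without CT-WD 2 and 0.1138 without CT-CTD 3 (adjusted p = 0.6674 and 0.9048). With unchanged group names, the alternatives gave adjusted p values from 0.00913 to 0.667 and from 0.0278 to 0.905. With CT-WD and OE-CTD exchanged, Acsl5 had a log2 fold change of 0.22 in OE-WD relative to CT-WD (edgeR adjusted p = 0.9999). In OE-CTD relative to CT-CTD it was then 0.05 (edgeR adjusted p = 0.987). For diet in CT the log2 fold change of Acsl5 was 0.05, with -0.24 without CT-WD 1 and 0.39 without CT-CTD 1.

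Acsl4 (ENSMUSG00000031278, chromosome X, 142317993 to 142390535, minus strand) was at 28.7, 39.6 and 40.7 CPM in CT-CTD 1 to 3 and at 34.0, 24.7 and 27.5 CPM in CT-WD 1 to 3. In EC-Myc OE it was between 28.4 and 31.5 CPM in OE-CTD and between 28.0 and 30.7 CPM in OE-WD. CT-CTD 2 and 3 were the highest libraries and CT-WD 2 and 3 the lowest, with CT-CTD 1 and CT-WD 1 in reverse order. The log2 fold change was -0.34 ± 0.130 (SE, edgeR adjusted p = 0.595) for diet in CT and -0.29 ± 0.121 (SE, edgeR adjusted p = 0.250) in OE-CTD relative to CT-CTD. Without replicate 1 of both CT groups these were -0.62 (adjusted p = 0.0238 in edgeR) and -0.43 (adjusted p = 0.0104), within ranges over the alternatives of 0.0238 to 0.981 and of 0.0104 to 0.637. Without CT-WD 2 the former was -0.2401, and without CT-CTD 3 the latter was -0.1978. EC-Myc OE groups differed by a log2 fold change of -0.04 (adjusted p = 0.9999 in edgeR).

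In all, 16 exact permutation tests were run on single members apart from Acsl3, and 3 gave p under 0.05, those of Acsl1 and Acsl6 named above, without adjustment for the number of tests. For CT-WD against CT-CTD, 3 against 3 libraries cannot give a p below 0.1. The fits cannot separate reads of overlapping genes where the strand setting of the counting is not known. Acsl3 overlaps Utp14b on the same strand (0.843 CPM on average), Acsl5 overlaps Zdhhc6 on the opposite strand (22.5 CPM), Acsl6 overlaps the antisense gene Gm12224 (3.97 CPM), and Acsl1 overlaps Gm45244 on the opposite strand (0.00287 CPM).

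Among the other genes of acyl-CoA handling, Dbi and Lpin1 passed the adjusted threshold, each in 1 comparison. Over all genes, 0% to 2.67% passed in a comparison. The list of other acyl-CoA synthetases, which activate short, medium or very long chains, had 10 of its 20 genes tested, and 0 passed in any of the 5 comparisons by edgeR. In OE-CTD relative to CT-CTD, 2 of the 10 were higher and 0 lower at an unadjusted p under 0.05. Of all genes, 9.22% were higher and 6.70% lower there. The 2 genes were Acss2, which makes acetyl-CoA from acetate, and Acsf2, with log2 fold changes of 0.25 and 0.54 (adjusted p = 0.236 and 0.302). Slc27a3, of the fatty acid transport protein family, had log2 fold changes of 0.68 for diet in CT (adjusted p = 0.622) and -0.82 in OE-WD relative to CT-WD (adjusted p = 0.134). The acyl-CoA thioesterases, which reverse the ACSL reaction, had 10 of 15 genes tested and 0 called. Acot2, a mitochondrial form, was at 53.5 CPM in CT-WD and 37.5 CPM in OE-WD, with a log2 fold change of -0.51 (adjusted p = 0.146).

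Of the acyl-CoA binding proteins, 6 of 7 were tested and 1 was called. Dbi, which encodes the acyl-CoA binding protein that carries ACSL products in the cytosol, rose in OE-CTD relative to CT-CTD from 62.5 ± 6.20 to 85.3 ± 10.7 CPM (SD, n = 3 and 4), with a log2 fold change of 0.45 ± 0.111 (SE, edgeR adjusted p = 0.0442). The call was lost without CT-CTD 2 or 3, without OE-CTD 1, 2 or 3 and without OE-WD 1, 3 or 4, and with limma. With unchanged group names the adjusted p of Dbi lay anywhere from 0.00712 to 0.211. An exchange of the names CT-WD and OE-CTD gave this comparison an edgeR adjusted p of 0.9925. Its log2 fold change was then 0.009, so the rise of Dbi was nearly absent. Between OE-WD and CT-WD, Dbi had a log2 fold change of 0.26 (adjusted p = 0.262). Of the glycerolipid synthesis genes, which use acyl-CoA to build triglycerides and phospholipids, 13 of 16 were tested and 1 was called. Lpin1, a phosphatidate phosphatase, fell in OE-WD relative to CT-WD from 502.6 ± 108.5 to 307.0 ± 50.9 CPM (SD, n = 3 and 4), with a log2 fold change of -0.71 ± 0.149 (SE, edgeR adjusted p = 0.0407). The call was lost without CT-CTD 3, without CT-WD 2 or 3, without OE-CTD 1, 2 or 3 and without OE-WD 2, 3 or 4. It was also lost with limma and with only the groups compared. Leaving out replicate 4 of both OE groups (edgeR adjusted p = 0.08725) lost it too. So did the replicate block (edgeR adjusted p = 0.1428), although replicate numbers gave no sign of pairs between OE-WD and CT-WD. Under the labelled names its log2 fold change lay between -0.8655 and -0.5552 and its adjusted p between 0.000427 and 0.2145. With CT-WD and OE-CTD exchanged the log2 fold change was 0.30 (adjusted p = 0.9999). Diet in CT gave Lpin1 a log2 fold change of 0.57 (adjusted p = 0.461).

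The remaining lists had no gene past the adjusted threshold in any of the 5 comparisons (0 genes of each list by edgeR, beside 0% to 2.67% of all genes). The carnitine shuttle list, which takes acyl-CoA into mitochondria, had 10 of 10 genes tested. Cpt2 was at 81.6 ± 6.58 CPM in CT-CTD and 101.5 ± 1.89 CPM in OE-CTD (log2 fold change 0.32, adjusted p = 0.0644), and Mlycd, the malonyl-CoA decarboxylase, was at 160.7 ± 25.6 CPM in CT-WD and 119.1 ± 3.03 CPM in OE-WD (log2 fold change -0.43, adjusted p = 0.0603). The fatty acid uptake and binding list had 8 of 8 genes tested. Gpihbp1, which anchors lipoprotein lipase on capillary endothelium, was at 48.4 ± 7.53 CPM in CT-WD and 33.2 ± 2.21 CPM in OE-WD (log2 fold change -0.54, adjusted p = 0.0635). The lipid droplet list had 16 of 17 genes tested. Plin4, a droplet coat protein, was at 548.5 ± 133.7 CPM in CT-WD and 329.2 ± 63.1 CPM in OE-WD (log2 fold change -0.74, adjusted p = 0.0799). The phospholipid remodelling list had 10 of 11 genes tested, and Lpgat1 had log2 fold changes of 0.41 in OE-CTD relative to CT-CTD (adjusted p = 0.195) and 0.35 in OE-WD relative to CT-WD (adjusted p = 0.265). In OE-CTD relative to CT-CTD the list medians were 0.09 for other synthetases, -0.05 for thioesterases, -0.05 for binding proteins, 0.11 for uptake, 0.06 for the carnitine shuttle, -0.16 for glycerolipid synthesis, 0.10 for remodelling and 0.02 for lipid droplets, beside -0.000702 for all genes.

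Muscle identity was checked with marker genes. The 10 muscle fibre markers summed to between 115027 and 166467 CPM, led by the fast myosin Myh4, and none was at 0 in any library. The 10 fast fibre markers summed to between 111534 and 156642 CPM and the 9 slow fibre markers, led by Atp2a2, to between 4769 and 7542 CPM, with none at 0. The fast marker Tnnc2 was hardly counted, with a mean of 0.684 CPM and at most 38 counts in a library. Slow fibre markers summed to 5731 ± 916.2 CPM in CT-CTD, 5851 ± 436.6 in CT-WD, 6838 ± 495.1 in OE-CTD and 6548 ± 448.8 in OE-WD. Across the 14 libraries the log2 level of Acsl6 had a Pearson correlation of -0.72 (Spearman -0.87) with the log2 slow fibre sum, which was -0.51 for deviations from the group means and -0.73 without the 2 libraries farthest from the median. Deviations of Acsl6 from the group means went more closely with those of other marker sums described below, with Pearson correlations of 0.87 for epidermis, 0.80 for adipocytes, 0.76 for fibroblasts and tendon, 0.71 for macrophages and -0.72 for muscle fibres. Over the 14 libraries as they stand these were 0.165, 0.426, -0.333, -0.125 and -0.304. The part of fibre type or of other cells in the level of Acsl6 was not tested.

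The 10 endothelial markers, led by Eng, summed to 481.4 ± 21.9 CPM in CT-CTD, 560.7 ± 44.85 in CT-WD, 567.8 ± 26.95 in OE-CTD and 612.4 ± 9.94 in OE-WD, and none was at 0. Of these markers, 1 passed the adjusted threshold in OE-CTD relative to CT-CTD, where 2.67% of all genes did. It was Tek (log2 fold change 0.52, adjusted p = 0.0232 in edgeR). In OE-WD relative to CT-WD 1 passed, Cdh5 (log2 fold change 0.46, adjusted p = 0.0322), where 0.725% of all genes did. Of the 10 markers, 5 were higher and 0 lower in OE-CTD relative to CT-CTD at an unadjusted p under 0.05, where 9.22% of all genes were higher and 6.70% lower. In OE-WD relative to CT-WD, 5 of the 10 were higher and 1, Flt1, was lower (log2 fold change -0.33, adjusted p = 0.173), where 8.44% of all genes were higher and 8.42% lower. For diet in CT, 3 were higher and 1 lower, where 4.19% of all genes were higher and 3.09% lower. For diet in EC-Myc OE, 1 was higher and 0 lower, where 1.93% of all genes were higher and 2.27% lower. The endothelial sum moved opposite to Acsl6 between groups, with a Pearson correlation of -0.66 (Spearman -0.63) over 14 libraries, -0.04 for deviations from the group means and -0.458 without the 2 libraries farthest from the median. For Acsl3 the Pearson correlations were -0.429 with the endothelial sum, and -0.464 and -0.436 with the macrophage and the fibroblast and tendon sums described below. For deviations from the group means they were -0.448, -0.0945 and -0.195, and without the 2 libraries farthest from the median of each sum -0.264, -0.264 and -0.567. The part of these cell types in the level of Acsl3 was not tested.

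Markers of connective tissue and macrophages moved with Acsl5. The 8 fibroblast and tendon markers, led by Dcn, summed to 455.3 ± 82.5 CPM in CT-CTD, 662.8 ± 507.7 in CT-WD, 1145 ± 265.8 in OE-CTD and 1250 ± 530.8 in OE-WD, and CT-WD 1 stood at 1249 CPM against 373.9 and 365.6 in CT-WD 2 and 3. The 8 macrophage markers, led by Lyz2, summed to 51.3 ± 18.4, 72.5 ± 36.2, 88.4 ± 20.7 and 80.8 ± 22.5 CPM in the same order of groups. None of either list was at 0. At an unadjusted p under 0.05, 6 of the 8 macrophage markers were higher and 0 lower in OE-CTD relative to CT-CTD. Of all genes, 9.22% were higher and 6.70% lower there. At an adjusted p under 0.05, 0 of these 8 passed. In OE-WD relative to CT-WD, 0 were higher and 0 lower at the unadjusted threshold, where 8.44% of all genes were higher and 8.42% lower. Over 14 libraries Acsl5 had a Pearson correlation of 0.82 (Spearman 0.70) with the fibroblast and tendon sum and of 0.80 (Spearman 0.64) with the macrophage sum. For deviations from the group means these were 0.69 and 0.81, and without the 2 libraries farthest from the median 0.76 and 0.64. The 8 adipocyte markers, led by Cfd, summed to 113.3 ± 81.9, 71.4 ± 66.4, 82.5 ± 33.2 and 82.0 ± 19.6 CPM, with Ucp1 at 0 in 9 libraries, and their correlation with Acsl5 was 0.62 (Spearman 0.55) and 0.82 for deviations. The 7 epidermis markers, led by Krt5, ran from 4.85 CPM in OE-CTD 4 to 141.2 CPM in OE-WD 3, and Krt1 was at 0 in 2 libraries and Krt5, Krt14 and Krt15 in 1 each. Their correlation with Acsl5 was 0.71 (Spearman 0.82). The part of these cell types in the level of Acsl5 was not tested. The 5 red blood cell markers, led by Hba-a1, summed to between 125.1 and 381.8 CPM, with Hba-a2 at 0 in 7 libraries, and their correlation with Acsl5 was -0.08 (Spearman -0.07).

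Of the 10 pairs of members, Acsl1 and Acsl5 had the highest Pearson correlation over the 14 libraries, at 0.59 (Spearman 0.30), and Acsl1 and Acsl3 the lowest, at -0.36 (Spearman -0.46). Without the 2 libraries farthest from the median these were 0.398 and -0.0426, and for deviations from the group means 0.608 and -0.245. For deviations, Acsl5 and Acsl6 had the highest, at 0.641, and Acsl3 and Acsl5 the lowest, at -0.355. With the 2 farthest libraries left out, Acsl4 and Acsl5 had the highest, at 0.576 against -0.335 over all 14. Acsl3 and Acsl4 then had the lowest, at -0.193. The genes most like Acsl3 among 11802 tested genes were Vps54, a subunit of a Golgi tethering complex (Pearson 0.90, Spearman 0.90), Wdr60 (0.86 and 0.86), Chd6 (0.84 and 0.82), Pomt2 (0.84 and 0.78) and Rev3l, the catalytic subunit of a DNA polymerase (0.84 and 0.82). For deviations from the group means their Pearson correlations with Acsl3 were 0.79, 0.52, 0.70, 0.59 and 0.66. Each had its lowest group mean in OE-CTD, as for Rev3l with 32.8 CPM in CT-CTD, 29.65 in CT-WD, 19.35 in OE-CTD and 28.35 in OE-WD. Acsl1 was most like Tle3, Megf6 and Rassf8 (Pearson 0.904, 0.896 and 0.890), and Acsl4 most like Zzz3, Efcab14 and St3gal1 (0.865, 0.856 and 0.849). Without the 2 libraries farthest from the median these were 0.717, 0.725 and 0.752 for Acsl1 and 0.637, 0.506 and 0.404 for Acsl4. The Spearman correlation of St3gal1 with Acsl4 was 0.464. Acsl5 was most like Dock2, a gene of leukocytes, Boc and Dapp1 (0.912, 0.910 and 0.909). Acsl6 was most like Elmod3, Nampt, the rate-limiting enzyme of NAD salvage, and Gemin2 (0.882, 0.875 and 0.862). The points share groups, so group differences enter each of these correlations, and they are descriptions over selected genes.

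The promoter of Acsl3 is shown because Acsl3 differed most between the groups and because the transgene encodes a factor that binds E-boxes. The 250 bases before the annotated start, chr1:78657575-78657824 on the plus strand of GRCm38.p6, were taken from RefSeq. All 5 members had an entry, with 8 windows in total. The E-box CACGTG, the CCAAT box (CCAAT) and the GC box (GGGCGG) were searched on both strands. In the sequence, capitals mark each CCAAT box or GC box found on either strand.
Acsl3: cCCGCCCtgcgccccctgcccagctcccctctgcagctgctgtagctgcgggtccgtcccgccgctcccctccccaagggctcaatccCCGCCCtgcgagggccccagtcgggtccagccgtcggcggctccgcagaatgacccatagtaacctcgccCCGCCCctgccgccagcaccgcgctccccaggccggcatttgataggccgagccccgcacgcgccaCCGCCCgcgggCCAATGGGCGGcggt
The Acsl3 window held 0 E-boxes, 1 CCAAT box and 5 GC boxes, the last of which directly follows the CCAAT box, and 75.6% of its bases were G or C. The E-box letters were in none of the 8 windows of the family (0 matches), and 6.02% of all 32851 promoter windows of the same length held them, against 33.8% for the CCAAT box and 32.7% for the GC box. Outside these windows no search was made. The first Acsl1 window held 4 GC boxes, the Acsl4 window 2 and the Acsl5 window 0.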

How the data were processed

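RNA-seq of skeletal muscle was analysed from 14 libraries in 4 groups. The authors deposited counts per Ensembl gene, not normalized, and FPKM values, which divide each count by gene length and a library total (79.9% to 98.0% of summed counts, so a scaling factor is included). The submitters' processing notes list HISAT2 2.0.5, featureCounts 1.5.0-p3 and mm10. The strand setting is not given in the sources used here. Reads were not analysed here.

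Counts were tested with edgeR 4.0.16 (R 4.3.3): TMM normalization, filterByExpr, a quasi-likelihood fit with a mean per group over all 14 libraries, and Benjamini-Hochberg adjustment over 15458 genes in each of 5 comparisons. The filter removed at most 0.06945% of a library's counts. A gene was called at an adjusted p under 0.05 without a minimum fold. Log2 CPM used a prior count of 2. Single members apart from Acsl3 were also compared by exact permutation tests on log2 CPM. The biological coefficient of variation was 17%. The code was tested on simulated data.

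The members and gene lists were chosen with earlier results of these data known. Genes named are the members, genes of each list that were called or had the smallest unadjusted p (up to 3 per comparison), the most abundant marker and those at 0, and the genes with the highest Pearson correlation with a member among those with a symbol and a mean of at least 1 CPM (5 for Acsl3, 3 for each other member). The endothelial markers Tek, Cdh5 and Flt1, Myc, and genes that overlap a member, were named after their values were seen.

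Replicates of a group differed by more than sampling noise (chi-square per degree of freedom 7.81 to 50.8). To see whether replicate numbers mark pairs, each library's deviations from its group mean were correlated over all genes with those of the same number in the other group. Between CT-WD and CT-CTD this gave 0.385, 0.123 and 0.203, all above 0.1, and these numbers were taken as pairs from this check alone. No source names a shared litter or batch. In OE-WD and OE-CTD the correlations were 0.0711, 0.138, 0.142 and 0.338. Between OE-WD and CT-WD they were -0.23, -0.158 and -0.0647, and between OE-CTD and CT-CTD 0.0465, -0.113 and -0.122. These give no sign of pairs between the genotypes, so the replicate block has no basis in the genotype comparisons. Alternatives tried were DESeq2 1.42.0, RLE size factors, no filter on low counts, limma 3.58.1 on log2(FPKM + 1) and log2(FPKM + 0.1), only the groups compared, the replicate block, each library left out, replicate 1 of both CT groups left out, and an exchange of the names CT-WD and OE-CTD. Leaving out replicate 4 of both OE groups was added after the data were seen.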

Additional observations from a re-analysis of the deposited data

Results flagged for a closer look

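Levels in the groups of 4 libraries were checked for a library far from the others, by the gap to its nearest neighbour relative to the range of the group. Of 36 checks, 4 passed the 95% critical value, where chance passes about 1 in 20. Acsl1 stood at 427.0 CPM in OE-CTD 2, above the other OE-CTD libraries. The summed muscle fibre markers stood at 162566 CPM and the summed fast fibre markers at 150889 CPM in OE-CTD 4, and these lists share Myh4 and Myh1. The summed macrophage markers stood at 114.4 CPM in OE-WD 2.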

How the results depend on the processing

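Counts of genes called at an adjusted p under 0.05 moved with the processing, and the reasons were not tested.

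For CT-WD versus CT-CTD (0 called), DESeq2 called 35, no filter on low counts 93, leaving out replicate 1 of both CT groups 31 and exchanging the names 413. With single libraries left out the count ran from 0 (without CT-CTD replicate 1) to 42 (without CT-WD replicate 1). For OE-WD versus OE-CTD (1 called), no filter gave 5, exchanged names 112, and leaving out replicate 4 of both OE groups 0. Single omissions gave 0 (without OE-CTD replicate 1) to 2 (without OE-WD replicate 1).

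For OE-WD versus CT-WD (112 called), DESeq2 gave 576, no filter 560, limma 48 on log2(FPKM + 1) and 38 on log2(FPKM + 0.1), only the groups compared 4, and the replicate block 6. Without replicate 1 of both CT groups it was 1680, with exchanged names 1, and without replicate 4 of both OE groups 5. Single omissions gave 4 (without OE-WD replicate 2) to 1499 (without CT-WD replicate 1). For OE-CTD versus CT-CTD (413 called), DESeq2 gave 814, no filter 760, limma 230 and 260, the replicate block 186, leaving out replicate 1 of both CT groups 766 and exchanged names 0. Single omissions gave 77 (without CT-CTD replicate 3) to 615 (without CT-WD replicate 1). In both genotype comparisons the replicate block joins libraries by numbers that gave no sign of pairs. For the interaction (0 called), DESeq2 gave 3, no filter 29, the replicate block 1 and leaving out replicate 1 of both CT groups 1, and single omissions gave 0 (without CT-CTD replicate 1) to 1 (without CT-WD replicate 1).

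With unchanged names, 434 of 456 values of members apart from Acsl3 kept their direction and their side of the threshold, 7 passed it and 15 changed sign. Of 114 values of Acsl3, 111 stayed within the spread between replicates. RLE size factors moved no count of calls by over 1.5 times. The fit on only the groups compared does not apply to the interaction. The call of Lpin1 was also lost with limma, only the groups compared, the replicate block and without replicate 4 of both OE groups, and that of Dbi with limma and with exchanged names. The replicate block changed no call of a member. With exchanged names the log2 fold change of Acsl1 was 0.14 in CT-WD versus CT-CTD, 0.21 in OE-WD versus OE-CTD, -0.10 in OE-WD versus CT-WD and -0.17 in OE-CTD versus CT-CTD. That of Acsl4 was 0.0122 in OE-WD versus OE-CTD and -0.0377 in OE-WD versus CT-WD, and that of Lpin1 there was 0.30. In OE-WD versus CT-WD, Acsl4 had -0.00297 with the replicate block and -0.0186 without replicate 4 of both OE groups, and -0.0854 (without CT-WD replicate 2) to 0.15 (without CT-WD replicate 1) with single omissions. In CT-WD versus CT-CTD, Acsl5 ran from -0.24 (without CT-WD replicate 1) to 0.39 (without CT-CTD replicate 1). In the interaction, single omissions moved Acsl1 from -0.0285 to 0.16, Acsl5 from -0.18 to 0.46 and Acsl6 from -0.0444 to 0.16. With exchanged names Acsl3 had -0.96, 0.17, 0.65 and -0.48 in the same order of comparisons.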
